A study of Mus musculus with 20 samples.

Results

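The 28 genes described here encode enzymes of cholesterol synthesis, the sterol-sensing proteins that govern their transcription, and proteins that carry, store or limit the uptake of the product. They were taken by gene symbol from a list of the mevalonate and sterol pathway and its control, and make up 28 of the 49315 genes in the deposited table. The list does not hold every enzyme of the pathway. Each symbol matched 1 row, and all 28 genes reached the minimum used for testing, a mean of 1 TPM over all livers. TPM corrects each gene for its length and each library for its total, so that levels of different genes may be set beside each other.

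Mouse liver was sampled from animals with obesity and steatohepatitis caused by the AMLN diet, which is rich in fat, fructose and cholesterol. All animals of both groups stayed on that diet, so no lean or chow-fed liver is part of the comparison. The vehicle group (n = 10) received hydroxyethylcellulose (HEC, 1%), and the treated group (n = 10) received S217879 at 30 mg/kg by mouth once a day. Treatment lasted 8 weeks in both groups. The series title presents S217879 as an agent that frees the transcription factor NRF2 from its repressor KEAP1. Strain, sex and age are not given in the labels, and every library comes from a separately numbered animal.

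Cholesterol is built from acetyl-CoA through mevalonate, isoprenoid diphosphates, squalene and lanosterol, and the liver is a main site of this synthesis. The transcription factor SREBP2 is held in the endoplasmic reticulum by SCAP and the INSIG proteins when membrane sterol is plentiful. When sterol falls, SCAP carries SREBP2 to the Golgi, where proteases release the part that enters the nucleus and binds sterol regulatory elements, often beside NF-Y and Sp1 boxes. Most genes of the pathway, and SREBP2's own gene, are known targets of this loop.

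Most of the pathway was lower in livers of S217879-treated mice. Of the 28 genes, 20 fell and 0 rose at an adjusted p under 0.05 (limma on log2(TPM + 0.5), Benjamini-Hochberg over 13401 genes), which is 71.4% of the list lower. Over all tested genes, 23.5% were lower and 6.07% higher, or 29.6% in either direction. At an unadjusted p under 0.05, 21 of the 28 were lower and 0 higher. The falls were deepest at farnesyl diphosphate synthase (Fdps, 73.5% lower mean TPM), squalene epoxidase (Sqle, 71.1% lower) and the sterol sensor Insig1 (52.2% lower). Sqle averaged 0.924 TPM in treated livers and met the minimum level through the vehicle livers. Its fitted fall, with 0.5 TPM added, was 59.4%. The median difference over the 28 genes was -0.51 on the log2 scale, against -0.12 over all tested genes. Because these are bulk samples, fewer cells of a type and less RNA per cell cannot be told apart in any of these values.

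Every part of the pathway held genes that fell, and 8 genes did not pass the test. Of the 20 enzymes from Acat2 to Dhcr7, 16 fell. By role, 2 of 4 sensing and control genes, 6 of 8 genes of the mevalonate and isoprenoid steps, 3 of 3 genes from squalene to lanosterol, 7 of 9 genes from lanosterol to cholesterol and 2 of 4 handling genes were lower. The 8 genes without a call were Scap, Insig2, Acat2, Ggps1, Nsdhl, Ebp, Mylip and Soat2. A log2 difference of -1 or below was found for 3 of the 28 genes, against 1.53% of all tested genes. For 2 of them, Fdps and Sqle, all 10 treated livers lay below all 10 vehicle livers, which held for 1.89% of all tested genes. Sqle was tested only because its vehicle level raised its mean above the minimum. In 0 of the 28 genes did all treated livers lie above all vehicle livers (1.84% of all tested genes). The count of genes that lay wholly below was 6 after median-of-ratios scaling (5.04% of all tested genes), 10 with 4 rRNA-type genes removed before rescaling (18.3%) and 8 without vehicle replicates 6 and 7 (9.58%).

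**Figure D1:**
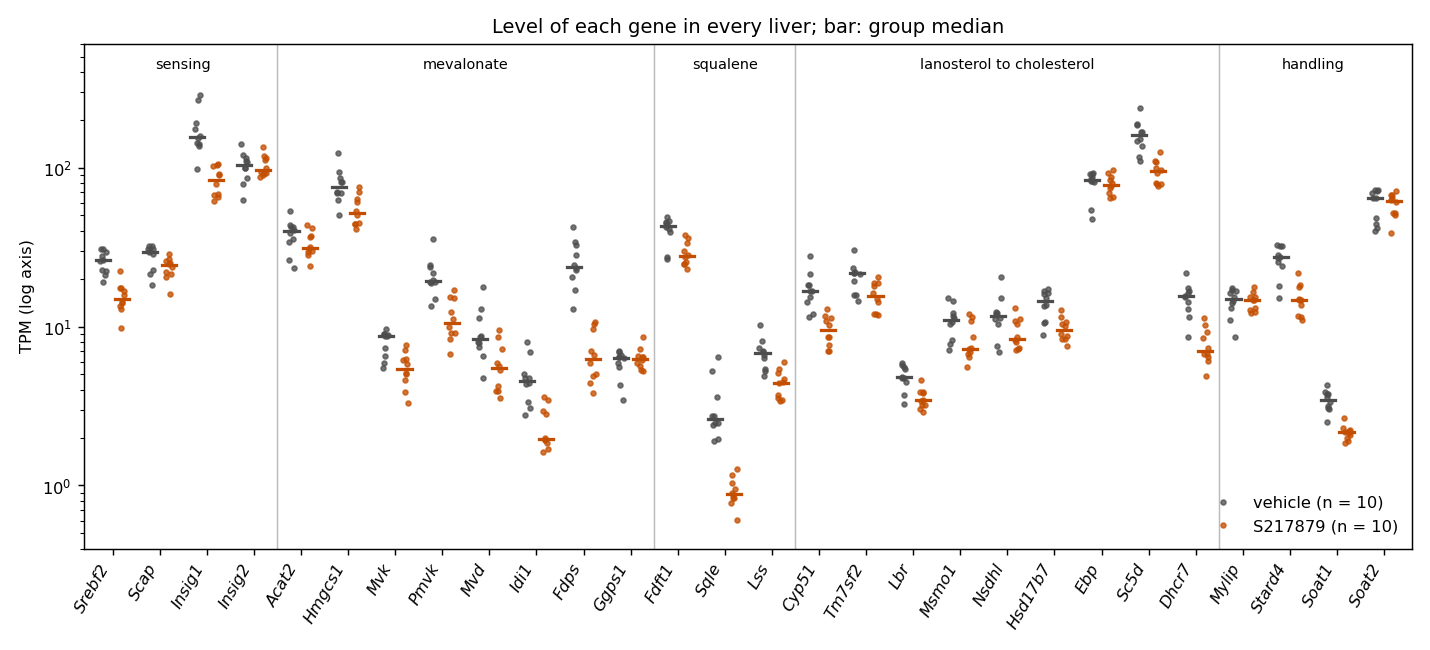
Level of each of the 28 genes in every liver, in TPM on a log axis, ordered by role; each point is 1 liver (10 vehicle, 10 S217879) and each bar is a group median. The 2 groups of points separate fully for Fdps and Sqle, and they overlap closely for Insig2, Ggps1, Ebp, Mylip and Soat2.

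Library composition differed between animals and touched the size of every difference. The share of TPM taken by 4 rRNA-type genes ranged from 17.4% to 58.2% in vehicle livers and from 14.1% to 38.1% in treated livers, with vehicle replicates 6 (58.2%) and 7 (50.7%) above all others. Because each library is scaled to 1 total, a high share lowers every other gene in that library. After median-of-ratios scaling, which moved the median of all genes from -0.12 to -0.01, 19 of the same 20 genes remained lower and 3 genes (Ggps1, Ebp, Mylip) were called higher. On that scale 27.1% of all tested genes were lower and 26.6% higher. With the 4 rRNA-type genes removed before rescaling, 24 of 28 were lower and 0 higher (all genes 63.1% lower and 7.15% higher, median -0.26). Without vehicle replicates 6 and 7 together 23 of 28 were lower and 0 higher (all genes 54.4% and 5.56%, median -0.23). The median of the 28 genes was -0.40, -0.65 and -0.61 under these 3 settings. Nqo1, a well-known NRF2 target, was 14.6 ± 3.52 TPM in vehicle livers and 102 ± 13.9 TPM in treated livers (SD, n = 10 each).

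**Figure D2:**
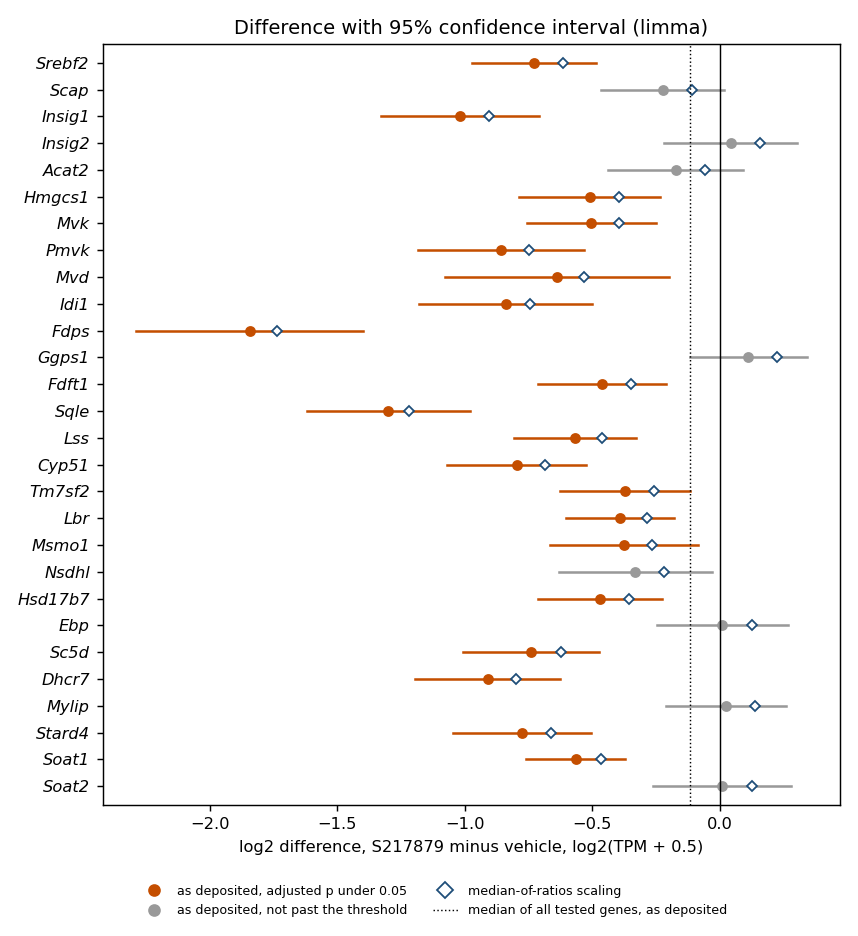
Difference of each gene on the log2(TPM + 0.5) scale, S217879 minus vehicle, as deposited (filled points, bars are 95% confidence intervals) and after median-of-ratios scaling (open diamonds). The 20 orange points passed an adjusted p of 0.05, and the dotted line is the median of all tested genes, -0.12.

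Promoters of the list were read from RefSeq (GRCm38.p6), in windows from 250 bases before to 50 bases after the annotated start. A window was found for 23 of the 28 genes, and none was matched for Fdps, Sqle, Stard4, Fdft1 and Soat2. The letters searched on both strands were TCACNCCAC (the core of a sterol regulatory element), CCAAT (the NF-Y box, ATTGG on the other strand), GGGCGG (the Sp1 box) and CACGTG (the E-box). The shorter form TCACCCCA, which can overlap the core, was added after the first search. CCAAT was found in 21 of 23 genes (91.3%), against 42.4% of 9607 tested genes with a window. It was present in 16 of 16 genes that fell and in 5 of 7 that did not pass the test. Some genes had more than 1 window, and a gene counted if any of its windows held the letters. By window, CCAAT was found in 16 of 19 for genes that fell, 5 of 10 for the others and 37.2% for all tested genes. Dhcr7 held it only in the window at chr7:143829964-143830263, and not in those at chr7:143822917-143823216 and chr7:143823149-143823448. GGGCGG was found in 21 of 23 genes (66.6% of all tested) and CACGTG in 5 of 23 (11.9%). TCACNCCAC was found in Hmgcs1 alone (4.35% of the genes, against 1.49%), and TCACCCCA in Hmgcs1 and Srebf2 (8.70%, against 1.85%). A match describes letters in a window and no binding was measured here.

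The 5 promoters below are shown because they carry these letters before genes that fell: the sterol element in Hmgcs1 and Srebf2, and the NF-Y box in Insig1, Sc5d and Mvd. The last 4 genes were picked for display after their values were seen. Each stretch runs 5′ to 3′ on the gene's strand and ends before the first exon. They lie at chr13:119690101-119690350 (plus strand, Hmgcs1), chr15:82147019-82147180 (plus, Srebf2), chr5:28071162-28071362 (plus, Insig1), chr9:42264301-42264550 (minus, Sc5d) and chr8:122443423-122443672 (minus, Mvd). Capitals mark TCACCCCAC in Hmgcs1, TCACCCCA in Srebf2, and CCAAT or ATTGG in the other three.
Hmgcs1: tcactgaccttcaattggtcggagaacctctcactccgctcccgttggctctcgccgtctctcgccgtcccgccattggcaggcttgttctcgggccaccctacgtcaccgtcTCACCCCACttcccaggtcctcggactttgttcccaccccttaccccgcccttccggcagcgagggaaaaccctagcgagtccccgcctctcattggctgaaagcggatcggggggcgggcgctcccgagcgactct
Srebf2: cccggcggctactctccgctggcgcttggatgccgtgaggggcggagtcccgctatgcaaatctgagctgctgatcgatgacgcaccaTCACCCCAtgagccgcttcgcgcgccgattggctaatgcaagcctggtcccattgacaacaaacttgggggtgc
Insig1: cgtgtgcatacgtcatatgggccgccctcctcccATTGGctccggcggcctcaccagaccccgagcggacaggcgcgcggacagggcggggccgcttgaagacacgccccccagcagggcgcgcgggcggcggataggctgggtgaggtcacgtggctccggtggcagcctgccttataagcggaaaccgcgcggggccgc
Sc5d: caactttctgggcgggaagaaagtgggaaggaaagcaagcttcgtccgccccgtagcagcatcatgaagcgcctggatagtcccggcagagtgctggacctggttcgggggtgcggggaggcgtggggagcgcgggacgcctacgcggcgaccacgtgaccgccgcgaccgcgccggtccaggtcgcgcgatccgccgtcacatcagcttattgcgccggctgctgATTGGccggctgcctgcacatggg
Mvd: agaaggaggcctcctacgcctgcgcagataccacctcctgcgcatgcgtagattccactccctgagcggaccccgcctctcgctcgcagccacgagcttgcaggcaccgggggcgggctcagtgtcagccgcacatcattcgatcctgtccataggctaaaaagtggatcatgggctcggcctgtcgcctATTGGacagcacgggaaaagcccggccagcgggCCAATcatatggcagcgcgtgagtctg
Distances depend on the start used, since RefSeq and the gene models whose coordinates are given for each gene differ by up to 88 bases here. The marked element begins 137 bases before the RefSeq start in Hmgcs1 (165 before that of the gene model) and 162 bases before it in Srebf2 (74 before that of the gene model). The marked box begins 216 bases before the RefSeq start in Insig1 (167 by the gene model) and 24 bases before it in Sc5d (68 by the gene model). Mvd holds a box on each strand, beginning 60 and 27 bases before its start, which is the same in both.

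Among the sensing genes, the transcription factor and 1 of its INSIG anchors fell, while the escort and the other anchor did not pass the test. Srebf2 (chr15:82147181-82205379), which encodes SREBP2, measured 19.1 TPM in the lowest, 26.1 in the median and 30.9 in the highest vehicle liver, against 9.80, 14.98 and 22.3 in treated livers. The groups barely overlapped, with 9 of 10 treated livers below every vehicle liver. Its log2 difference was -0.73 (SE 0.12, 95% confidence interval -0.97 to -0.49, adjusted p = 9.1e-06), and it passed the test in all 32 alternative settings. Insig1 (chr5:28071363-28078662), an SREBP target whose product retains SCAP, ranged from 97.9 to 285 TPM around a median of 155 in vehicle livers and from 61.6 to 105 around 84.1 in treated livers. All 10 treated livers were below the vehicle median and 7 were below every vehicle liver. The log2 difference of Insig1 was -1.02 (SE 0.15, interval -1.33 to -0.71, adjusted p = 2.26e-06).

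Insig2, the INSIG form that is less tied to SREBP activity, stayed within its vehicle range. Its vehicle livers ran from 62.2 through 104 to 140 TPM and its treated livers from 87.8 through 96.8 to 136 TPM. The log2 difference was 0.04 with an interval from -0.22 to 0.30 (adjusted p = 0.843), and Insig2 was called in 0 of 32 alternatives. Scap, the sterol-sensing escort of both SREBPs, ran from 18.4 through 29.7 to 32.3 TPM in vehicle and from 15.98 through 24.4 to 28.6 TPM in treated livers. Its difference was -0.23 (interval -0.47 to 0.01, adjusted p = 0.152) and ranged from -0.37 to -0.11 over the alternatives. All 10 treated livers lay below the vehicle median of Scap, and 1 lay below the vehicle range. Scap passed the test in 5 of 32 alternatives, among them the one without vehicle replicate 6 (adjusted p = 0.0226). In the annotation 13.2% of its exonic bases overlap 5830462I19Rik on the opposite strand, and whether counting used strand is not stated in the labels.

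The INSIG forms differed in order between the groups. Insig1 lay above Insig2 in every vehicle liver and below it in most treated livers. The exceptions were S217879 replicate 1 (104.1 against 93.76 TPM) and replicate 6 (102.6 against 87.83 TPM). The ratio of Insig1 to Insig2, which does not depend on library scale, had a median of 1.58 in vehicle livers (1.42 to 2.21) and 0.775 in treated livers (0.556 to 1.17), in TPM without a pseudocount. The ranges did not overlap. The mean log2 ratio, tested here and below with 0.5 TPM added to each gene, differed by -1.06 (two-sided permutation test, 100000 resamples, p = 2e-05, the smallest these resamples can give; adjusted p = 0.00014 over 7 ratios). Srebf2 fell alongside Srebf1, the gene of the related fatty acid regulator (289 ± 82.4 to 193 ± 45.4 TPM, SD, n = 10 each, log2 difference -0.55, adjusted p = 0.00616). Their ratio differed by -0.18 (permutation p = 0.21, adjusted p = 0.25), with 8 of 10 treated livers below the vehicle median.

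The mevalonate steps fell together, apart from the entry thiolase. Acat2, the cytosolic thiolase that joins acetyl-CoA units, ran from 23.4 through 39.8 to 53.4 TPM in vehicle livers and from 24.1 through 31.1 to 43.5 TPM in treated livers. All treated livers lay inside the vehicle range, and the difference was -0.17 (interval -0.44 to 0.09, adjusted p = 0.336, called in 3 of 32 alternatives). Acat3, a near copy that lies 2289 bases from Acat2, had a difference of 0.26 (adjusted p = 0.131), and reads could be shared between the pair. After median-of-ratios scaling Acat3 was called higher (0.375, adjusted p = 4.6e-06) and Acat2 was not called (-0.06, adjusted p = 0.566). Hmgcs1, the cytosolic synthase that acts next on the way to mevalonate, ran from 50.7 through 75.9 to 123 TPM in vehicle and from 41.3 through 51.6 to 75.4 TPM in treated livers. Here 5 treated livers lay below every vehicle liver, and the difference was -0.51 (SE 0.14, adjusted p = 0.00362). The sterol element printed above lies before this gene.

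Both mevalonate kinases were lower. Mvk, which adds the first phosphate, ran from 5.46 through 8.75 to 9.62 TPM in vehicle and from 3.28 through 5.44 to 7.67 TPM in treated livers (difference -0.50, SE 0.13, adjusted p = 0.00188). Pmvk, which adds the next, ran from 13.6 through 19.4 to 35.3 TPM and from 6.73 through 10.6 to 16.9 TPM (difference -0.86, SE 0.16, adjusted p = 0.000136). Of the treated livers, 5 for Mvk and 7 for Pmvk lay below every vehicle liver.

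Decarboxylation and isomerization make the active isoprene units. Mvd, the decarboxylase, ran from 4.76 through 8.32 to 17.9 TPM in vehicle and from 3.57 through 5.50 to 9.57 TPM in treated livers. It varied most among the fallen genes after Sqle in vehicle animals (coefficient of variation 39.8%), and 8 of 10 treated livers lay below the vehicle median. Its difference of -0.64 (SE 0.21, adjusted p = 0.0264) did not pass without S217879 replicate 3 (adjusted p = 0.0512) or S217879 replicate 7 (0.0503). Idi1, the isomerase, ran from 2.76 through 4.55 to 8.05 TPM in vehicle and from 1.63 through 1.96 to 3.58 TPM in treated livers (difference -0.84, SE 0.16, adjusted p = 0.000342).

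Farnesyl diphosphate is the branch point between sterols and the other isoprenoids, and its synthase had the deepest fall of the list. Fdps (chr3:89093588-89101959, minus strand) ran from 12.99 through 23.9 to 42.3 TPM in vehicle livers and from 3.84 through 6.28 to 10.6 TPM in treated livers. The highest treated liver was below the lowest vehicle liver. The log2 difference was -1.84 (SE 0.21, interval -2.29 to -1.40, adjusted p = 1.36e-06), and 0.187% of all tested genes had a difference as low or lower. It ranged from -2.01 to -1.72 over the alternatives. Gm43738 shares 26.7% of the exonic bases of Fdps on the same strand but measured at most 0.025 TPM in any liver. Ggps1, which extends farnesyl diphosphate for protein prenylation, ran from 3.43 through 6.39 to 6.997 TPM in vehicle and from 5.25 through 6.29 to 8.56 TPM in treated livers. Its difference was 0.11 (interval -0.12 to 0.34, adjusted p = 0.493), it was called higher after median-of-ratios scaling (0.22, adjusted p = 0.00284), and it turned to -0.02 without vehicle replicates 6 and 7.

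From squalene to lanosterol 3 of 3 enzymes fell, with squalene epoxidase deepest. Fdft1, the squalene synthase that commits farnesyl diphosphate to sterols, ran from 26.6 through 43.1 to 49.2 TPM in vehicle and from 23.2 through 27.9 to 37.9 TPM in treated livers (difference -0.46, SE 0.12, adjusted p = 0.00354). Of its exonic bases 18.3% overlap Ctsb on the opposite strand, and Ctsb itself differed by -0.24 (adjusted p = 0.143). All 10 treated livers lay below the vehicle median of Ctsb. It was called lower in 6 of 32 alternatives, among them median-of-ratios scaling (-0.12, adjusted p = 0.0228). Sqle (chr15:59315077-59331192), an oxygen-dependent and rate-controlling step, ran from 1.90 through 2.61 to 6.41 TPM in vehicle and from 0.609 through 0.883 to 1.28 TPM in treated livers. The groups did not overlap, and the treated animals were also the more uniform, with a coefficient of variation of 20.8% against 46.8%. The difference of Sqle was -1.30 (SE 0.16, interval -1.62 to -0.98, adjusted p = 2.77e-07). Its treated mean was under 1 TPM, so that it met the minimum through the vehicle livers. Lss, which closes the sterol rings, ran from 4.89 through 6.80 to 10.2 TPM in vehicle and from 3.39 through 4.43 to 6.02 TPM in treated livers (difference -0.57, SE 0.12, adjusted p = 0.000227).

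Squalene epoxidase fell further than squalene synthase. The Sqle to Fdft1 ratio had a median of 0.0771 in vehicle livers (0.0414 to 0.130) and 0.0312 in treated livers (0.0247 to 0.0365), in TPM without a pseudocount, and these ranges did not overlap. Its mean log2 value, with 0.5 TPM added to each gene, differed by -0.84 (permutation p = 0.0001, adjusted p = 0.00035), with 10 of 10 treated livers below the vehicle median.

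**Figure D3:**
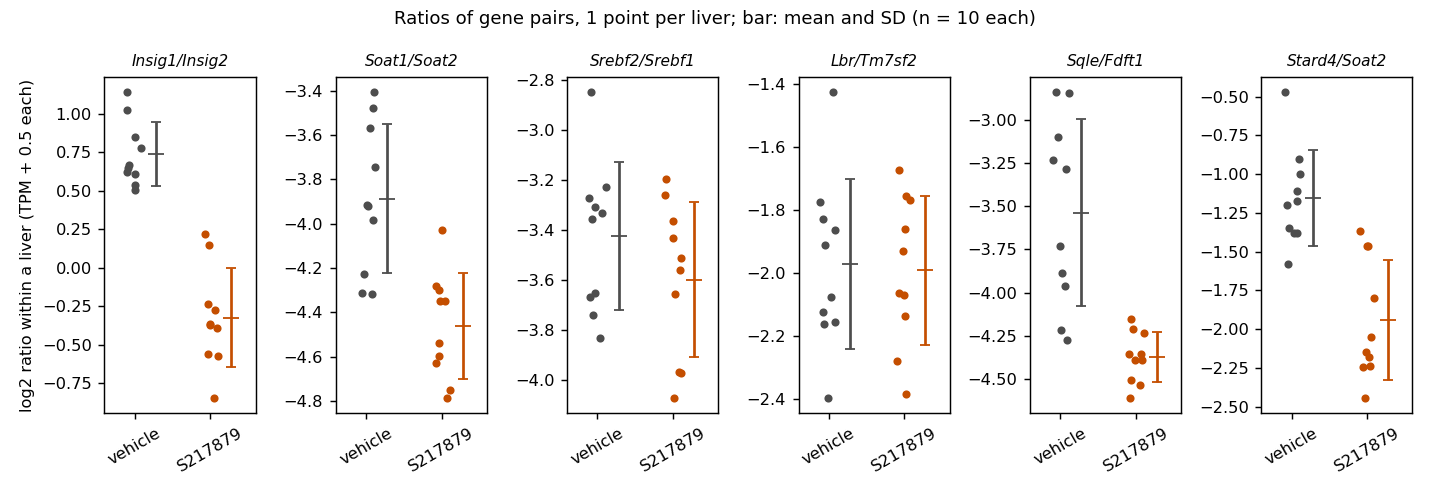
Log2 ratio of 6 gene pairs within each liver (TPM + 0.5 for each gene; axes differ between panels), 1 point per liver, with mean and SD of 10 livers per group. The ranges are apart for Insig1 to Insig2, and the Lbr to Tm7sf2 points cover the same span in both groups.

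Between lanosterol and cholesterol 7 of 9 genes fell. Cyp51, the P450 enzyme that starts the demethylation of lanosterol, ran from 11.5 through 16.7 to 27.9 TPM in vehicle and from 7.01 through 9.46 to 12.9 TPM in treated livers. For Cyp51, 8 treated livers were below every vehicle liver (difference -0.80, SE 0.13, adjusted p = 1.39e-05). The double bond it leaves is reduced by either of a pair of related reductases, Tm7sf2 in the endoplasmic reticulum and Lbr, which is also a lamin-binding protein of the nuclear envelope. Tm7sf2 ran from 14.4 through 21.6 to 30.5 TPM in vehicle and from 11.9 through 15.6 to 20.5 TPM in treated livers (difference -0.37, SE 0.13, adjusted p = 0.0227). Lbr ran from 3.24 through 4.79 to 5.92 TPM and from 2.91 through 3.44 to 4.60 TPM (difference -0.39, SE 0.11, adjusted p = 0.00378).

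The reductases fell by a like amount, and no difference between them was detected: the mean log2 Lbr to Tm7sf2 ratio differed by -0.02 (permutation p = 0.86, adjusted p = 0.86), with 5 treated livers on each side of the vehicle median. The call of Tm7sf2 was lost with no minimum level (adjusted p = 0.0663), without S217879 replicate 1 (0.0514) and without vehicle replicate 2 (0.0637). Of its exonic bases 12.1% overlap Vps51 on the same strand, and Vps51 differed by -0.24 (adjusted p = 0.106). All 10 treated livers lay below the vehicle median of Vps51. It was called lower in 6 of 32 alternatives, among them median-of-ratios scaling (-0.13, adjusted p = 0.0463).

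Removal of the remaining methyl groups takes 3 enzymes that act in a complex. Msmo1, the methylsterol oxidase, ran from 7.10 through 10.99 to 15.1 TPM in vehicle and from 5.53 through 7.28 to 11.99 TPM in treated livers. Its difference of -0.38 (SE 0.14, adjusted p = 0.0427) was close to the threshold. It passed in 13 of 32 alternatives and had an adjusted p of 0.068 after median-of-ratios scaling, and leaving out any of 13 of the 20 livers took it above 0.05 (0.0561 to 0.0864). Nsdhl, the dehydrogenase that follows, ran from 6.93 through 11.6 to 20.6 TPM in vehicle and from 7.13 through 8.39 to 13 TPM in treated livers, with all treated livers inside the vehicle range. Its difference was -0.33 (interval -0.63 to -0.03, adjusted p = 0.087), and it passed without vehicle replicate 7 (0.032), vehicle replicate 8 (0.0209) or S217879 replicate 10 (0.0393). Hsd17b7, the ketoreductase of the complex, ran from 8.84 through 14.4 to 17.3 TPM in vehicle and from 7.59 through 9.54 to 12.8 TPM in treated livers (difference -0.47, SE 0.12, adjusted p = 0.00229). Erg28, the scaffold of this complex, fell from 17.6 ± 3.40 to 13.3 ± 2.36 TPM (SD, n = 10 each, difference -0.39, adjusted p = 0.0121).

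The closing steps split, with the isomerase level near that of vehicle and the desaturase and reductase lower. Ebp, which shifts the ring double bond, ran from 47.5 through 84.0 to 93.1 TPM in vehicle and from 64.4 through 78.2 to 96.1 TPM in treated livers. Its difference was 0.01 (interval -0.25 to 0.27, adjusted p = 0.969). Its call differed between settings, and Ebp was called higher after median-of-ratios scaling (0.12, adjusted p = 0.0268) and lower with the rRNA-type genes removed (-0.13, adjusted p = 0.00654) or with array weights (-0.16, adjusted p = 0.0238). Sc5d (chr9:42251595-42264256, minus strand), the desaturase and the most abundant gene of the list in vehicle livers, ran from 110.0 through 160 to 236 TPM in vehicle and from 76.5 through 94.6 to 126 TPM in treated livers. For Sc5d, 8 treated livers lay below every vehicle liver (difference -0.74, SE 0.13, adjusted p = 2.84e-05).

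Dhcr7 (chr7:143823145-143848410), the reductase that turns the product of Sc5d into cholesterol, ran from 8.58 through 15.5 to 21.7 TPM in vehicle and from 4.90 through 7.02 to 11.4 TPM in treated livers. All 10 treated livers were below the vehicle median and 7 were below every vehicle liver. The difference was -0.91 (SE 0.14, interval -1.20 to -0.63, adjusted p = 4.92e-06), the largest fall of the 9 genes after lanosterol.

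Of the handling genes, the sterol carrier and 1 of 2 esterifying enzymes fell. Stard4, a soluble carrier that moves cholesterol between membranes and is known to respond to SREBP2, ran from 15.1 through 27.3 to 32.7 TPM in vehicle and from 11.01 through 14.7 to 21.8 TPM in treated livers. For Stard4, 7 treated livers lay below every vehicle liver (difference -0.78, SE 0.13, adjusted p = 1.78e-05). Soat1 (chr1:156424525-156474331, minus strand), the cholesterol esterifying enzyme found widely and at high levels in macrophages, ran from 2.53 through 3.47 to 4.32 TPM in vehicle and from 1.85 through 2.16 to 2.66 TPM in treated livers. Here 9 of 10 treated livers were below every vehicle liver (difference -0.57, SE 0.10, adjusted p = 1.41e-05). Soat2, the esterifying enzyme of hepatocytes and enterocytes, ran from 40.0 through 64.4 to 72.6 TPM and from 38.5 through 61.7 to 71.5 TPM. Its difference was 0.01 (interval -0.26 to 0.28, adjusted p = 0.972), with 0 calls in 32 alternatives. Mylip, a ubiquitin ligase that degrades lipoprotein receptors and is induced by the sterol receptor LXR, ran from 8.55 through 14.9 to 17.6 TPM and from 12.1 through 14.7 to 17.7 TPM (difference 0.02, interval -0.21 to 0.26, adjusted p = 0.911). It was called higher after median-of-ratios scaling (0.14, adjusted p = 0.048) and had a difference of -0.11 without vehicle replicates 6 and 7.

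As ratios taken within a liver, Soat1 and Stard4 were both lower relative to Soat2 in the treated group. The Soat1 to Soat2 ratio had a median of 0.0593 in vehicle and 0.0375 in treated livers, in TPM without a pseudocount (mean log2 difference -0.57, permutation p = 0.0005, adjusted p = 0.00087). The Stard4 to Soat2 ratio had a median of 0.433 and 0.227 (-0.79, permutation p = 0.00016, adjusted p = 0.00037). In both ratios 10 of 10 treated livers lay below the vehicle median.

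Markers of other liver cells moved with treatment and are given beside these results. Over all tested genes 23.5% were lower and 6.07% higher. Macrophage markers were lower for 7 of 10 genes, with summed levels of 678 to 1310 TPM in vehicle (median 1053) and 560 to 1023 TPM in treated livers (median 713). Stellate and fibroblast markers were lower for 8 of 8 genes (274 to 520 TPM, median 424, against 200 to 387 TPM, median 257), and cholangiocyte markers for 2 of 4 (177.7 to 465.8 TPM, median 305, against 89.3 to 243 TPM, median 149). Hepatocyte markers were lower for 0 and higher for 1 of 6 genes, with sums of 22500 to 53900 TPM in vehicle (median 48800) and 31340 to 51320 TPM in treated livers (median 41240). The hepatocyte count moved with scale, to 2 higher and 0 lower after median-of-ratios scaling (26.6% and 27.1% of all tested genes). It was 1 higher and 3 lower with the rRNA-type genes removed, and the same without vehicle replicates 6 and 7 (63.1% and 54.4% of all tested genes lower). Endothelial markers were higher for 3 of 5 (51.8 to 110.0 TPM, median 91.3, against 95.5 to 129 TPM, median 106). Without vehicle replicates 6 and 7 the endothelial count was 2 higher and 1 lower (5.56% and 54.4% of all tested genes). Lymphocyte markers were called for 0 of 3 tested genes (4.75 to 18.7 TPM, median 7.07, against 3.10 to 12.5 TPM, median 6.67). Fat cell, exocrine pancreas and skeletal muscle markers summed to at most 0.0882, 0.160 and 0.127 TPM in any liver. The part of these cell types in the fall of Soat1, Lbr or any other gene of the list was not tested.

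Animals differed along the list as a whole. Over the 20 genes that fell, vehicle replicate 2 was the highest of its group for 16, and vehicle replicates 6, 7 and 8 were the lowest for 7, 7 and 5. In the treated group, S217879 replicate 4 was highest for 12 genes and replicate 3 lowest for 10. S217879 replicate 3 lay below every vehicle liver for 20 of 20 genes, and replicate 4 for 3. On the median-of-ratios scale these counts were 17 and 8, and replicate 7 had the highest count, 18. The 20 genes were picked as lower in these same livers, and no share over all tested genes is given for single livers. After median-of-ratios scaling vehicle replicate 2 was still highest for 12 genes, while vehicle replicate 8 became the lowest for 13 and vehicle replicate 6 for 0. Among treated livers on that scale, replicate 10 was highest for 9 genes and replicate 5 lowest for 7. For 18 of the 20 genes all treated livers were below the vehicle median, the exceptions being Mvd and Msmo1 with 8 of 10. Spread between animals was of similar size in both groups, with a median coefficient of variation over the 20 genes of 23.5% in vehicle and 21.8% in treated livers, higher in treated livers for 7 genes.

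**Figure D4:**
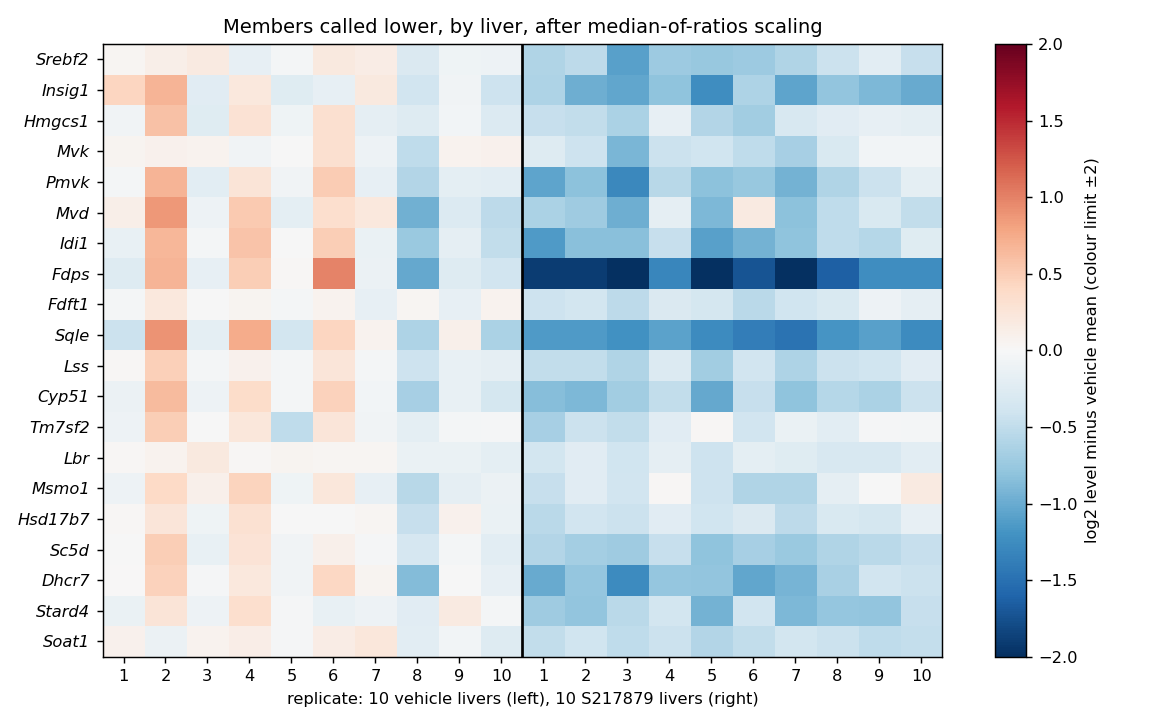
The 20 genes that fell in each of 20 livers after median-of-ratios scaling, as log2 level minus the vehicle mean of that gene (colour limits ±2); vehicle replicates are left of the line and S217879 replicates right of it. Vehicle replicate 2 is the reddest column and vehicle replicate 8 the bluest of its group, and the Fdps and Sqle rows are the darkest among treated livers.

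In vehicle livers the list covered levels from a median of 2.61 TPM (Sqle) to 160 TPM (Sc5d). Next to Sqle stood Soat1 (3.47), Idi1 (4.55) and Lbr (4.79), and next to Sc5d stood Insig1 (155), Insig2 (104), Ebp (84.0) and Hmgcs1 (75.9). The range of each gene overlapped that of its neighbour in this order. In treated livers Insig2 (96.8 TPM) had the highest median, above Sc5d (94.6) and Insig1 (84.1).

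Another 9 lists of genes around the pathway were counted with the same fit. Over all tested genes 23.5% were lower and 6.07% higher as deposited. The shares were 27.1% lower and 26.6% higher after median-of-ratios scaling, and 63.1% lower and 7.15% higher with the rRNA-type genes removed. Of 15 genes that process or degrade SREBPs and their sensors, 1 rose and 1 fell (median 0.02), against 8 higher and 2 lower after median-of-ratios scaling and 1 higher and 7 lower with the rRNA-type genes removed. The one that rose was 2410131K14Rik (also named Spring1), which encodes a partner of the SREBP protease, from 4.15 ± 0.916 to 7.001 ± 0.745 TPM (SD, n = 10 each, difference 0.71, adjusted p = 2.74e-06) with all 10 treated livers above all vehicle livers. The one that fell was Srebf1. Of 7 further genes known to respond to SREBP2 outside the synthesis chain, 5 fell and 0 rose (median -0.48). Among these, the fatty acid desaturases Fads1 (409 ± 88.0 to 62.1 ± 40.1 TPM, difference -2.90, adjusted p = 1.21e-07) and Fads2 (1407 ± 312 to 405 ± 138 TPM, -1.83, adjusted p = 6.72e-11) did not overlap between groups. Both also respond to SREBP1.

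Of 21 genes of the non-sterol isoprenoid branch (dolichol, ubiquinone and prenylation), 1 rose and 0 fell, with 1 lower at an unadjusted p under 0.05 (median -0.05). This count moved with scale, to 9 higher and 1 lower after median-of-ratios scaling and 1 higher and 14 lower with the rRNA-type genes removed. Of all tested genes, 6.07% were higher and 23.5% lower as deposited. After median-of-ratios scaling 26.6% were higher, and with the rRNA-type genes removed 63.1% were lower. The one that rose as deposited was Coq7, a ubiquinone hydroxylase (difference 0.37, adjusted p = 0.0173). Of 8 tested genes that supply electrons or help in the sterol oxidations, 2 rose and 1 fell (median 0.03), against 4 and 1 after median-of-ratios scaling and 2 and 4 with the rRNA-type genes removed. Pgrmc1, a haem protein that binds P450 enzymes such as Cyp51, rose from 1164 ± 289 to 2832 ± 304 TPM (difference 1.32, adjusted p = 2.43e-09), and Cyb5a, an electron donor, differed by 0.45 (adjusted p = 0.0169). Of 8 acetyl-CoA and ketone genes outside the 28, 4 fell and 1 rose (median -0.11, and 0.0081 after median-of-ratios scaling). Acly, which makes cytosolic acetyl-CoA, fell by 0.91 (adjusted p = 0.00021), and Aacs, which returns ketone bodies to lipid synthesis, fell by 1.10 (adjusted p = 0.00026).

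Sterol export and bile acid genes included several that rose. Of 12 LXR-regulated or receptor genes outside the 28, 3 rose and 3 fell (median -0.18), where 23.5% of all tested genes fell. With the rRNA-type genes removed 8 were lower, beside 63.1% of all tested genes. Without vehicle replicates 6 and 7 the lower count was also 8, beside 54.4%. Those that rose included the sterol exporters Abcg5 (174 ± 50.9 to 273 ± 36.0 TPM, difference 0.70, adjusted p = 0.000336) and Abcg8 (119 ± 36.4 to 270 ± 35.04 TPM, 1.24, adjusted p = 2.23e-08). Those that fell were Srebf1, Pltp (-0.55, adjusted p = 0.000541) and Lpcat3 (-0.32, adjusted p = 0.0485), the last of which passed in 16 of 32 alternatives. Of 14 bile acid and oxysterol genes, 5 rose and 0 fell (median 0.37), where 6.07% of all tested genes rose. After median-of-ratios scaling 11 were higher (26.6% of all tested genes). With the rRNA-type genes removed 8 were higher and 2 lower, beside 7.15% and 63.1% of all tested genes. Without vehicle replicates 6 and 7 the count was 5 higher and 1 lower, beside 5.56% and 54.4%. Cyp8b1, which sets the share of cholic acid, rose by 1.09 (adjusted p = 4.9e-06) and Acox2, which shortens the side chain, by 1.10 (adjusted p = 1.37e-08). Cyp7a1, the rate-limiting enzyme of bile acid synthesis, had a difference of 0.48 (adjusted p = 0.146). It was called in 2 of 32 alternatives, among them median-of-ratios scaling, where it was higher (0.59, adjusted p = 0.0138).

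Of 21 genes of sterol transport and ester hydrolysis, 7 fell and 1 rose (median -0.13), beside 23.5% lower and a median of -0.12 over all tested genes. The lower count was 18 with the rRNA-type genes removed and 14 without vehicle replicates 6 and 7, where 63.1% and 54.4% of all tested genes were lower. The cholesteryl ester hydrolase Nceh1 fell by 0.91 (adjusted p = 4.38e-07) and the lipid transfer protein Osbpl8 by 0.52 (adjusted p = 0.00136), and Cav1, a caveolar protein, rose by 0.53 (adjusted p = 0.00487). Of 17 genes of fatty acid synthesis under SREBP1, 11 fell and 1 rose (median -0.83), a list that shares Fads1, Fads2, Srebf1, Acly, Acss2 and Scd1 with those above. Fasn fell by 1.27 (adjusted p = 0.00135), and Me1, a supplier of NADPH and a known NRF2 target, rose by 0.67 (adjusted p = 0.000846).

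**Figure D5:**
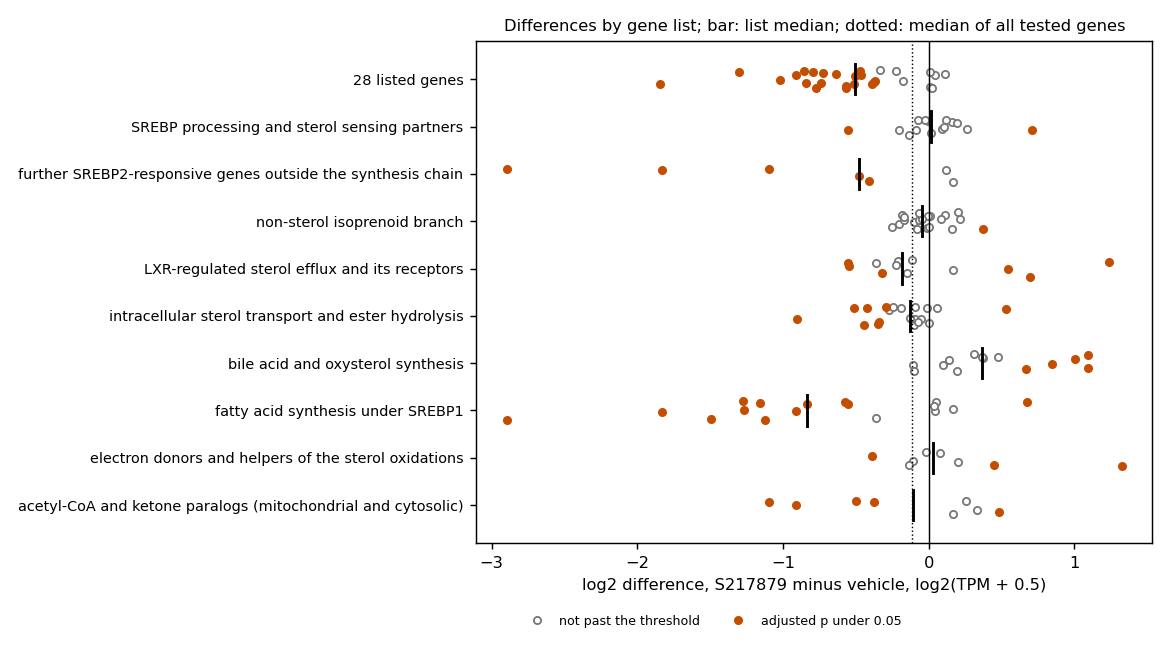
Log2 difference (S217879 minus vehicle) of each tested gene by list, with genes that belong to the 28 shown in the top row only; filled points passed an adjusted p of 0.05, bars are list medians and the dotted line is the median of all tested genes. The median of the 28 genes is -0.51, that of fatty acid synthesis -0.83 and that of bile acid synthesis 0.37.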

How the data were processed

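Liver RNA of 20 separately numbered mice was profiled, and groups were taken from the treatment label. RNA isolation used a kit for fatty tissue, and library preparation a stranded kit with poly(A) capture, per the labels' protocols. The tools named in the submitters' processing notes are STAR 2.5.2b, Trimmomatic 0.36, Subread 1.5.2 and featureCounts, with the genome build GRCm38. The annotation, settings and use of strand were not given in the sources used here. In the deposited table the authors give a signal in TPM, corrected for gene length, and each library sums to 1000000 over 49315 genes. The number of reads is therefore unknown, and precision is the spread between animals.

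Values were taken as log2(TPM + 0.5), which understates changes of low genes. Genes averaging 1 TPM or more over all livers entered a limma fit (version 3.58.1, R 4.3.3; eBayes with trend and robust), adjusted over all 13401 genes, with a threshold of 0.05. "Rose" and "fell" mean past this threshold as deposited. Ratios were compared by two-sided permutation tests (scipy 1.17.1, 100000 resamples), adjusted over 7 ratios, of which 6 are given, since 1 gene of the lists is not reported here. On simulated data 69% of genes changed by 0.5 (log2) and 99% of those changed by 1 were recovered, and 5 of 13201 unchanged genes were called. The simulated noise was drawn separately for each gene, with no shift shared across a library. These rates therefore do not cover the differences in library composition described above. Coordinates, exons and overlaps came from an annotation of GRCm38, and promoter sequences from RefSeq.

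The 28 genes, the other lists and the markers were chosen with earlier results of these data known. Of each other list, at most the 2 called genes with the highest and the 2 with the lowest difference are described. The genes of the ratios are named too, and Ctsb, Vps51, Gm43738 and Nqo1 were added as neighbours or known markers. Acat3, Lpcat3, Cyp7a1, Fasn and Mmab belong to the other lists and were named outside this rule, as neighbours, relatives or known markers. Faxdc2 was not matched to a row and was not used here. The 32 alternatives were other pseudocounts, minimum levels, scalings, weights and eBayes settings, and leaving out each library in turn or vehicle replicates 6 and 7 together. The shorter sterol element, 4 of the printed promoters and the Mvk to Mmab ratio were chosen after seeing the data.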

Additional observations from a re-analysis of the deposited data

Results flagged for a closer look

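Of the 56 combinations of a gene and a group, 1 held a liver far from the rest of its group, where chance alone flags about 1 in 20 (5%). Pmvk measured 35.3 TPM in vehicle replicate 2 and 24.3 TPM in the next vehicle liver. That gap is 0.509 of the group's whole range, against a critical value of 0.466 for 10 samples. Vehicle replicate 2 was also the highest vehicle liver for 16 of the 20 genes that fell. Pmvk was called lower in all 32 alternatives, among them the one without this liver.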

How the results depend on the processing

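The count of genes that fell stayed between 17 and 24 over 32 alternatives, and 17 genes were called lower in each alternative that tested them. Over all tested genes 23.5% were lower as deposited and 27.1% after median-of-ratios scaling. The share was 63.1% with the rRNA-type genes removed and 54.4% without vehicle replicates 6 and 7. No paired analysis was possible because the labels number every animal separately and share no number between the groups. The count that rose was 0 as deposited (6.07% of all tested genes), 3 after median-of-ratios scaling (26.6%) and 1 after quantile normalization. The count without overlap of the groups was 2 as deposited, where 1.89% of all tested genes lay wholly below vehicle. It was 6 after median-of-ratios scaling (5.04%), 10 with the rRNA-type genes removed (18.3%) and 8 without vehicle replicates 6 and 7 (9.58%). With a minimum of 5 TPM it was 1, and after quantile normalization 6. It lay between 2 and 4 when 1 library was left out (4 without vehicle replicate 6). No share over all tested genes is given for these last settings. The median of the 28 genes stayed between -0.65 and -0.39. Genes near 0 changed sign. With the rRNA-type genes removed the differences were -0.102 (Insig2), -0.0202 (Ggps1), -0.135 (Ebp), -0.117 (Mylip) and -0.135 (Soat2). With array weights they were -0.101 (Insig2), -0.0164 (Ggps1), -0.161 (Ebp), -0.103 (Mylip) and -0.0543 (Soat2). Without vehicle replicates 6 and 7 they were -0.0845 (Insig2), -0.0234 (Ggps1), -0.145 (Ebp), -0.110 (Mylip) and -0.113 (Soat2). After quantile normalization Insig2 was -0.0230 and Ebp -0.0294. Leaving out 1 library gave -0.0335 to 0.0957 for Insig2, -0.0700 to 0.0397 for Ebp, -0.0551 to 0.0557 for Mylip and -0.0490 to 0.0720 for Soat2. The Lbr to Tm7sf2 ratio differed by 0.0078 with a pseudocount of 1 and by -0.0670 to 0.0406 with 1 library left out. The cause of these changes was not tested. Depth is unknown, so that low genes such as Sqle, Idi1 and Soat1 have no counting interval, and a minimum of 5 TPM removes them from testing.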

Other observations

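Mvk and Mmab, which encodes an enzyme of vitamin B12 metabolism and is known to share its promoter region with Mvk, lie head to head on chromosome 5. Their gene models (GRCm38) are chr5:114444269-114460591 on the plus strand for Mvk and chr5:114431034-114444060 on the minus strand for Mmab, with 208 bases between them. Mvk fell in treated livers, while Mmab measured 9.05 ± 1.65 TPM in vehicle and 9.84 ± 1.59 TPM in treated livers (SD, n = 10 each, log2 difference 0.12, adjusted p = 0.446). Mmab was called in 2 of 32 alternatives, among them median-of-ratios scaling, where it was higher (0.23, adjusted p = 0.00142). It also belongs to the 7 further SREBP2-responsive genes counted above, of which 5 fell. The log2 ratio of Mvk to Mmab was -0.18 ± 0.13 in vehicle and -0.81 ± 0.21 in treated livers (SD, n = 10 each), a difference of -0.63 (two-sided permutation test, p = 2e-05, the smallest these resamples can give). All 10 treated livers lay below the vehicle median of this ratio. The pair was chosen after its values were seen.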
